A study of Rattus norvegicus with 30 samples.

Results

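The genes that encode the natural inhibitors of metalloproteinases, Timp1, Timp2, Timp3, Timp4 and Reck, were followed in rat plantaris tendon before and after surgical repair. The genes are taken by name, as the known members of the family that the count table lists, and earlier results of these data were known when the family was picked. All 5 were among the 13124 genes listed in the count table, and all 5 were among the 12558 genes that passed the filter on low values and were tested. The study asked whether GSK2894631A, an inhibitor of hematopoietic prostaglandin D synthase (HPGDS), changes the healing of a cut and repaired tendon. RNA sequencing of 30 right plantaris tendons from 3-month-old male Sprague Dawley rats, 1 tendon per rat, is described here. The 3 control tendons came from rats that had neither surgery nor compound. In the 6 repaired groups the plantaris tendon of both hind limbs was cut through and sutured at once, the Achilles tendon was left whole, and the compound was given by mouth 2 times a day. The libraries analysed here are those left after libraries of low read quality were removed by the authors from the control group and from both compound groups at 7 days. At 7 days (7D) they came from 5 rats at 0 mg/kg, 4 rats at 2 mg/kg and 3 rats at 6 mg/kg, the last being 1 fewer than the stated removals would leave. At 21 days (21D) they came from 5 rats at each of the 3 doses. Because no rat had surgery without repair or compound without surgery, a difference from control holds everything that separates an untouched tendon from a cut, sutured and gavaged one, and the 0 mg/kg groups received the carrier alone.

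Metalloproteinases are zinc-dependent enzymes that cut collagen, proteoglycans and cell surface proteins, and the tissue inhibitors of metalloproteinases (TIMPs) are small secreted proteins that block them by binding the active site. TIMP-1 is the form most readily induced by inflammatory and growth signals, and TIMP-2 is made more evenly by connective tissue cells and also forms the complex in which the membrane-bound enzyme MMP14 activates pro-MMP2. TIMP-3 is held in the extracellular matrix and is the TIMP that also blocks ADAM17 and the aggrecan-cutting ADAMTS enzymes, TIMP-4 is the most tissue-restricted of the family and is known from heart, muscle and fat, and RECK is an inhibitor anchored in the cell membrane.

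Total counts ran from 12405741 to 49909374 per tendon, and every count of the 5 genes was far above the floor of 3 counts, which corresponds to between 0.0601 and 0.242 CPM (counts scaled to a common library size) depending on the library. The lowest count was 97, for Timp4, and the others ran from 267 to 18609 for Timp1, from 3780 to 94570 for Timp2, from 1108 to 10383 for Timp3 and from 339 to 4740 for Reck. Control tendons held a large share of skeletal muscle RNA: the 25 listed genes of a 29-gene muscle marker list took 18.6% to 26.4% of the counts in controls, 0.194% to 1.25% at 7D 0 mg/kg, 0.0142% to 0.0177% at 7D with the compound, and 0.0750% to 9.39% at 21D. Control replicate 4 had the largest muscle share and the lowest sums of the tenocyte, fibroblast and macrophage marker lists among the controls, and its log2 CPM correlated less well with the other controls (mean r = 0.923) than theirs did (0.944 and 0.947). The tenocyte markers were present in every tendon, none of the 8 at 0, with summed levels of 1908 to 7861 CPM in controls. Control replicate 2 alone set the top of that range, with replicate 3 at 2029 CPM. It also had the highest summed cartilage markers, 1084 CPM against 222 and 134 CPM in replicates 3 and 4. Where leaving out control replicate 4 changed a call or a direction of a member against control, the value without that tendon is given beside it. In bulk tissue, fewer cells of a type and less RNA per cell cannot be told apart.

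The sequences just upstream of the 3 genes whose levels in every repaired group differed from control are shown because these genes moved in different directions. Each is the 250 bases before the annotated start, 5′ to 3′ on the gene's own strand, from RefSeq on the GRCr8 assembly. The counts themselves were made on the older rn6 assembly, so these coordinates are not those of the count table. All 3 genes lie on the minus strand: the Timp1 window is chrX:3771123-3771372, the Timp2 window chr10:104089215-104089464 and the Timp4 window chr4:149985205-149985454. Capitals mark every match, on either strand, to the AP-1-like TGAGTAA, the ETS-like AGGAAG or the GC box GGGCGG.
Timp1: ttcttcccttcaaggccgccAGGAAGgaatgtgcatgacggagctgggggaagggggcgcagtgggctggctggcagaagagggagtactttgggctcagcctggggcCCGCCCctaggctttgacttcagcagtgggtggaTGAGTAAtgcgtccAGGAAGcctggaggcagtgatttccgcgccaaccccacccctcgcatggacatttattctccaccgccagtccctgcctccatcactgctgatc
Timp2: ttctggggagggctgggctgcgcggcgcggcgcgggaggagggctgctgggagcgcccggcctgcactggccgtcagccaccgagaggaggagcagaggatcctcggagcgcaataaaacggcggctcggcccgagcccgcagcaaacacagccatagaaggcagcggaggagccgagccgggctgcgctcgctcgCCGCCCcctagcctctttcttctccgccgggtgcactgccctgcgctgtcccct
Timp4: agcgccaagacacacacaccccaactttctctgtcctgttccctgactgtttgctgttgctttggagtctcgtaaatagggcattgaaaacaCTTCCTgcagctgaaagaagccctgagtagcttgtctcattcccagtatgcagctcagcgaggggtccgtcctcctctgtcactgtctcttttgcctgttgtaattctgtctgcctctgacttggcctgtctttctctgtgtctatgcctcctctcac

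The Timp1 window was the one of the 5 members' windows that held TGAGTAA, which starts 108 bases before the annotated start, next to an AGGAAG that starts at 94 bases. TGAGTAA was found in 2.38% of 33469 rat promoter windows of the same length, AGGAAG in 29.5% and GGGCGG in 30.5%. The Timp2 window had no AGGAAG and 1 GC box, and it was rich in G and C (72.0%, against a median of 51.2% over all windows). The Timp4 window had 1 AGGAAG, on the opposite strand, no GC box, and 50.8% G and C. Neither the full AP-1 element TGANTCA (6.34% of all windows) nor TATAAA (12.9%) was found in any of the 5. These matches describe letters, and no binding was measured.

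Timp1 was the member with the largest rise after repair. The 3 control tendons had 55.7, 60.9 and 21.8 CPM. At 7D 0 mg/kg the 5 tendons had 511, 433, 407, 333 and 431 CPM, and at 21D 0 mg/kg they had 194, 358, 221, 246 and 219.8 CPM. Every repaired tendon of all 6 groups was above every control, the lowest of the 27 being the 194 CPM of 21D 0 mg/kg replicate 1. Such separation was common: in the single comparisons with control, 25.0% to 34.6% of all genes had every repaired value above every control. The level was 9.15-fold higher than control at 7D 0 mg/kg (log2 fold change 3.19, standard error 0.31, edgeR adjusted p = 4.19e-09), where the adjusted p is the Benjamini-Hochberg value of edgeR's quasi-likelihood F-test over all genes tested and a gene is called at an adjusted p under 0.05. It was 5.36-fold higher at 21D 0 mg/kg (log2 fold change 2.42, standard error 0.30, edgeR adjusted p = 2.86e-07). In the 4 groups given the compound the fold against control was 10.3 and 8.72 at 7D and 5.65 and 4.84 at 21D, for 2 and 6 mg/kg. Without control replicate 4, the lowest control, the log2 fold change was 2.80 at 7D 0 mg/kg and 2.04 at 21D 0 mg/kg, and Timp1 was called in all 6 groups. All 6 comparisons use the same 3 control tendons, so their agreement is not 6 separate observations. Large shares of all genes were called in these comparisons, 71.4% at 7D 0 mg/kg (35.8% higher and 35.6% lower) and 65.9% at 21D 0 mg/kg (32.2% higher and 33.7% lower), so a call by itself sets no gene apart. The shares were 69.7% (35.8% higher and 34.0% lower) at 7D 2 mg/kg, 67.9% (34.1% and 33.8%) at 7D 6 mg/kg, 69.1% (33.8% and 35.3%) at 21D 2 mg/kg and 64.1% (30.8% and 33.3%) at 21D 6 mg/kg. By size, the Timp1 change exceeded those of 97.8% of genes tested at 7D 0 mg/kg and 96.6% at 21D 0 mg/kg.

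**Figure D1:**
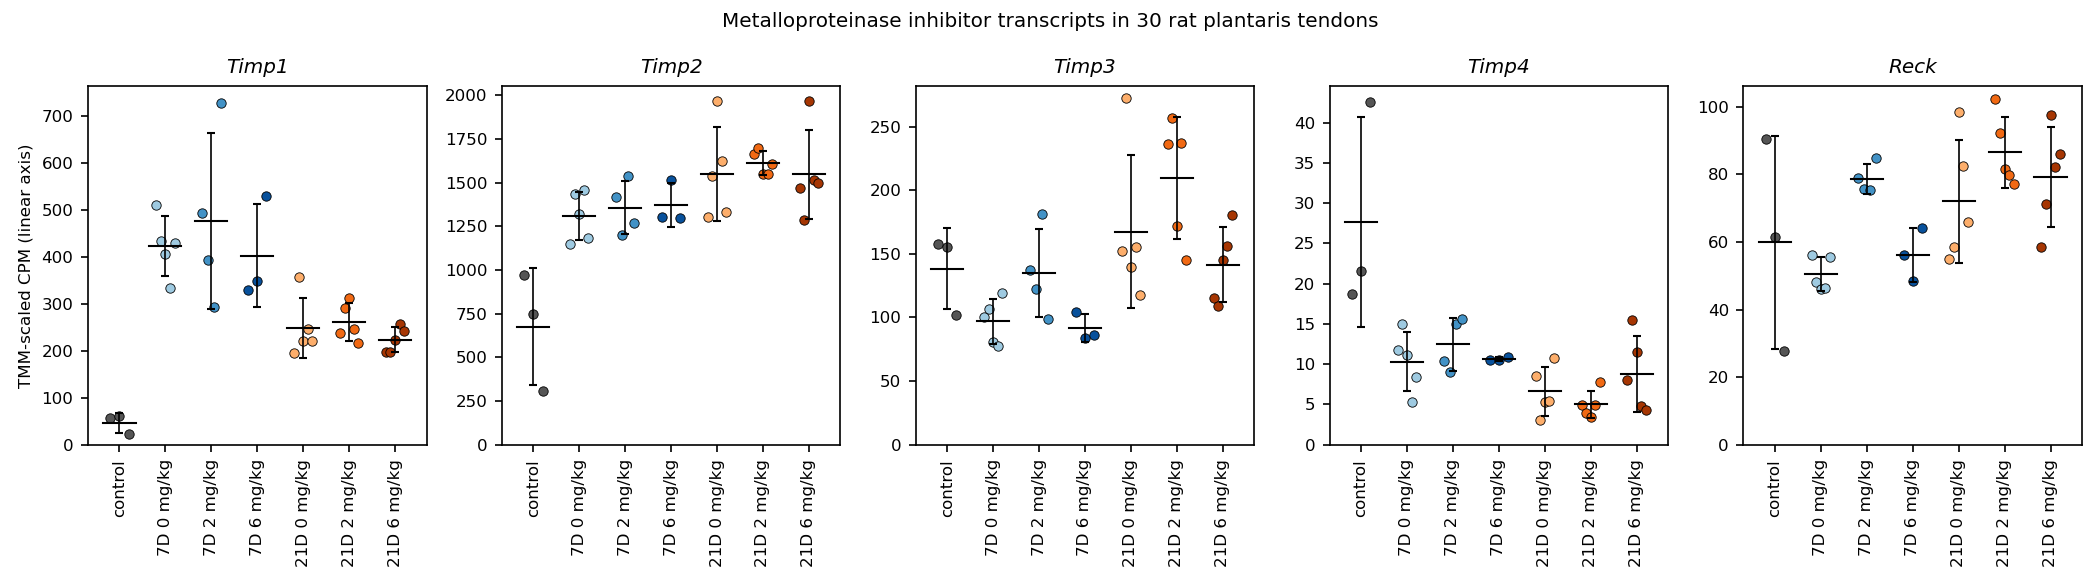
Levels of the 5 inhibitor transcripts in each of the 30 tendons. The y axes are linear TMM-scaled CPM, each point is a tendon, and bars and whiskers are the mean and SD of each group (n = 3 control, 5, 4 and 3 at 7D and 5 each at 21D, for 0, 2 and 6 mg/kg). All repaired tendons lie above the controls for Timp1 and Timp2 and below them for Timp4, while groups overlap with control for Timp3 and Reck. In single comparisons with control, 25.0% to 34.6% of all genes lay wholly above control and 27.8% to 32.3% wholly below.

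Timp2 was also higher in every repaired tendon, by a smaller factor. The controls had 969.5, 745 and 309 CPM, a spread of more than 3 times that is set by replicate 4. The 5 tendons of 7D 0 mg/kg had 1150.1, 1434, 1320.5, 1456 and 1183 CPM, and those of 21D 0 mg/kg had 1302, 1535, 1967, 1624 and 1329 CPM. The repaired tendons were close to each other and none reached down to the control range. The share of all genes given for Timp1 stands beside this separation. The fold against control was 1.94 at 7D 0 mg/kg (log2 fold change 0.96, standard error 0.22, edgeR adjusted p = 0.000492) and 2.30 at 21D 0 mg/kg (log2 fold change 1.20, standard error 0.23, edgeR adjusted p = 5.87e-05). With the compound it was 2.01 and 2.04 at 7D and 2.39 and 2.29 at 21D. Timp2 was called in all 6 groups with control replicate 4 left out as well, but the log2 fold changes then fell to between 0.55 (7D 0 mg/kg, edgeR adjusted p = 0.00411) and 0.85 (21D 2 mg/kg). With the summed muscle markers as a covariate Timp2 was called at 21D and not at 7D, while Timp1 was called in all 6 groups. At 7D the 3 doses in rising order gave Timp2 log2 fold changes of 0.73, 0.58 and 0.60 (edgeR adjusted p = 0.0566, 0.443 and 0.427). Muscle RNA was lower in every repaired tendon than in every control at both times, so the covariate cannot separate it from repair.

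Timp3, the matrix-bound TIMP, did not show a common direction against control. The controls had 158, 155 and 102 CPM. The 7D 0 mg/kg tendons had 101, 107, 80.9, 77.3 and 119 CPM and the 21D 0 mg/kg tendons 152, 272, 139.9, 155 and 118 CPM. At 7D all 5 values at 0 mg/kg lay below the higher pair of controls, and control replicate 4 lay among them. The log2 fold change was -0.52 at 7D 0 mg/kg (95% interval -1.01 to -0.02, edgeR adjusted p = 0.0576), -0.04 at 7D 2 mg/kg and -0.60 at 7D 6 mg/kg (edgeR adjusted p = 0.0551), and none of these was called. DESeq2 did call Timp3 lower at 7D 0 mg/kg (adjusted p = 0.0314) and 7D 6 mg/kg (0.0275), as did edgeR with RLE size factors (0.0406 and 0.0396) and with only the groups compared (0.0383 and 0.0416). In all, 4 of 10 alternatives called it lower at 7D 0 mg/kg and 5 of 10 at 7D 6 mg/kg. At 21D it was 0.27 at 0 mg/kg (95% interval -0.23 to 0.78), 0.60 at 2 mg/kg (edgeR adjusted p = 0.0356, the one group called) and 0.03 at 6 mg/kg. Control replicate 4 decided several of these values. Without it, Timp3 was called lower at 7D 0 mg/kg (log2 fold change -0.75, edgeR adjusted p = 0.0129) and at 7D 6 mg/kg (-0.81, edgeR adjusted p = 0.0162), and the call at 21D 2 mg/kg was lost (0.36, edgeR adjusted p = 0.256), while the value at 21D 6 mg/kg changed sign (-0.19). The call at 21D 2 mg/kg held in 3 of 8 fits that each left out a tendon, and was also lost without control replicate 2 (edgeR adjusted p = 0.0556) and without replicates 1, 2 and 4 of its own group (0.0655, 0.0811 and 0.0664). With the muscle markers as a covariate, Timp3 was called lower at 7D at all 3 doses, by -1.26, -1.41 and -1.97 (edgeR adjusted p = 0.000846, 0.0359 and 0.00730), and not at 21D 2 mg/kg (0.10).

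Timp4 was the member that was lower after repair. Its levels were 18.7, 21.5 and 42.6 CPM in the controls, from 397, 537 and 521 counts. They were 11.7, 15.0, 11.2, 5.25 and 8.44 CPM at 7D 0 mg/kg and 8.55, 3.05, 5.26, 5.36 and 10.8 CPM at 21D 0 mg/kg. The lowest control was above the highest of the 27 repaired tendons, 15.5 CPM in 7D 2 mg/kg replicate 5, so control and repaired tendons did not overlap. In the single comparisons with control, 27.8% to 32.3% of all genes had every repaired value below every control. Timp4 was 2.67-fold lower than control at 7D 0 mg/kg (log2 fold change -1.42, standard error 0.39, edgeR adjusted p = 0.00255) and 4.17-fold lower at 21D 0 mg/kg (log2 fold change -2.06, standard error 0.40, edgeR adjusted p = 8.06e-05). With the compound it was 2.22-fold and 2.59-fold lower at 7D and 5.52-fold and 3.13-fold lower at 21D, all called. Of the 5 members, 2 were called higher and 1 lower in each repaired group but 21D 2 mg/kg, where 4 were called higher and 1 lower, and the shares of all genes given above stand beside these counts.

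The Timp4 result moved with other values that differ between control and repaired tendons. All 25 listed skeletal muscle markers were called lower at 7D 0 mg/kg (median log2 fold change -5.78) and 21 of them at 21D 0 mg/kg (-3.12). The control with the most muscle RNA also had the most Timp4. Among repaired groups the order differed. Muscle RNA was lowest at 7D with the compound, at 0.0142% to 0.0177% of counts. Mean Timp4 there was 12.5 and 10.6 CPM at 2 and 6 mg/kg. At 21D muscle took 0.0750% to 9.39% of counts, and mean Timp4 was 6.60, 4.99 and 8.81 CPM at 0, 2 and 6 mg/kg. Within 21D 0 mg/kg, Timp4 was highest in the tendon with the most muscle RNA and lowest in that with the least. These relations were not tested. With the summed muscle markers as a covariate, Timp4 was no longer called at 7D: its log2 fold change was -0.33 at 0 mg/kg (edgeR adjusted p = 0.642), 0.81 at 2 mg/kg (0.533) and 0.59 at 6 mg/kg (0.666). The same fit gave, at 21D, -1.40 at 0 mg/kg (edgeR adjusted p = 0.0111), -1.75 at 2 mg/kg (0.00165) and -0.95 at 6 mg/kg (0.0813). Scaled by library size only, with no correction for composition, Timp4 was not called at 7D, at -0.77, -0.53 and -0.73 for the 3 doses in rising order (edgeR adjusted p = 0.0640, 0.220 and 0.124), and was -1.45 at 21D 0 mg/kg (0.00134), on a scale that moved the median of all genes to 0.64 and 0.59. The muscle share was lower in every repaired tendon, at most 9.39% of counts, than in every control, at least 18.6%. Loss of muscle RNA and repair therefore cannot be told apart at 7D or at 21D, with or without the covariate. The adipocyte markers did not fall in the same way: 3 of 6 were called higher and 1 lower at 7D 0 mg/kg, and their summed level was 353 to 696 CPM in controls, 405 to 1024 CPM at 7D 0 mg/kg and 507 to 683 CPM at 21D 0 mg/kg, and it was lowest at 21D 2 mg/kg, with 156 to 518 CPM. Without control replicate 4, Timp4 kept its call at 7D 0 mg/kg (log2 fold change -1.02, edgeR adjusted p = 0.0391) and at all 3 doses at 21D (-1.65, -2.08 and -1.24), and lost it at 7D 2 mg/kg (-0.75, edgeR adjusted p = 0.150) and 7D 6 mg/kg (-0.96, edgeR adjusted p = 0.0852). The call at 7D 2 mg/kg was also lost without replicate 3 of that group (-1.02, edgeR adjusted p = 0.0526).

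Reck, the membrane-anchored inhibitor, lay on both sides of control. The controls had 90.6, 61.5 and 27.7 CPM, the widest relative spread of the 5 genes in control (SD 52.6% of the mean). The 7D 0 mg/kg tendons were tightly grouped at 56.3, 48.3, 46.1, 46.3 and 55.5 CPM, and the 21D 0 mg/kg tendons had 54.9, 58.5, 98.6, 82.5 and 65.9 CPM. Both groups fell within the control range or close to it. The log2 fold change against control was -0.25 at 7D 0 mg/kg (95% interval -0.72 to 0.22, edgeR adjusted p = 0.337) and 0.26 at 21D 0 mg/kg (95% interval -0.22 to 0.74, edgeR adjusted p = 0.325). The one group called was 21D 2 mg/kg (log2 fold change 0.53, edgeR adjusted p = 0.0488), where all 5 tendons lay between 77.1 and 102 CPM. That call held in 2 of 8 fits that each left out a tendon. It was lost without control replicate 4 (log2 fold change 0.13, edgeR adjusted p = 0.580), without control replicate 3 (0.59, 0.0681) and without replicates 1, 2, 3 or 4 of its own group (0.0991, 0.0764, 0.0544 and 0.0519), and with RLE size factors, scaling without muscle genes, only the groups compared or the muscle covariate (0.0563, 0.0517, 0.158 and 0.264). Without control replicate 4 the value at 21D 0 mg/kg changed sign (-0.12), and Reck was called lower at 7D 0 mg/kg (-0.65, edgeR adjusted p = 0.00433). Without control replicate 2, the highest control, it was called higher at 7D 2 mg/kg (0.76, edgeR adjusted p = 0.00947), 21D 0 mg/kg (0.63, 0.0237) and 21D 6 mg/kg (0.76, 0.00831), so for Reck the 3 controls do not fix the direction.

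**Figure D2:**
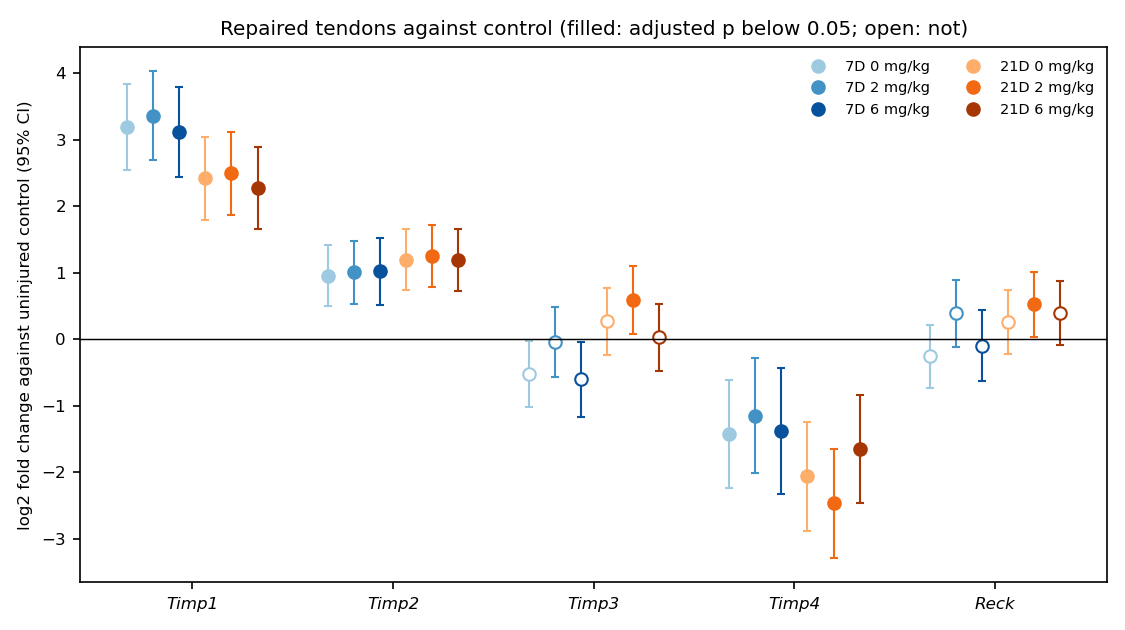
Log2 fold change of each inhibitor in the 6 repaired groups against the 3 control tendons, with 95% intervals. Filled points have an adjusted p under 0.05 and open points do not, and colours give the time and dose. Timp1 and Timp2 lie above 0 and Timp4 below 0 in all 6 groups, while Timp3 and Reck are called at 21D 2 mg/kg alone.

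Ordered by mean level, few neighbouring groups differed beyond their spread. For Timp1 the order ran from the 3 groups at 7D (477 ± 187, 423 ± 63.5 and 403 ± 111 CPM for 2, 0 and 6 mg/kg, mean ± SD) through the 3 groups at 21D (261 ± 39.7, 248 ± 64.2 and 224 ± 26.7 CPM for 2, 0 and 6 mg/kg) to control (46.1 ± 21.2 CPM). Of its 6 steps between neighbours only the last passed the test. For Timp2 the 3 groups at 21D (1614 ± 67.7, 1552 ± 269 and 1547 ± 253 CPM for 2, 0 and 6 mg/kg) led those at 7D (1373 ± 125, 1357 ± 150.2 and 1309 ± 139.97 CPM for 6, 2 and 0 mg/kg), and again only the step down to control (675 ± 336 CPM) passed. The Timp4 order was the reverse, with control on top (27.6 ± 13.0 CPM), then the groups at 7D (12.5 ± 3.26, 10.6 ± 0.244 and 10.3 ± 3.67 CPM for 2, 6 and 0 mg/kg) and those at 21D (8.81 ± 4.71, 6.60 ± 3.05 and 4.99 ± 1.68 CPM for 6, 0 and 2 mg/kg), and only the step from control passed. No step between neighbours passed for Timp3, whose means ran from 209.7 ± 48.2 CPM at 21D 2 mg/kg to 91.4 ± 11.0 CPM at 7D 6 mg/kg. None passed for Reck either, whose means ran from 86.7 ± 10.5 CPM at 21D 2 mg/kg to 50.5 ± 4.99 CPM at 7D 0 mg/kg.

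Between 7 and 21 days, Timp1 and Timp4 were lower at the later time where they were called, and Timp3 was higher. At 0 mg/kg, where 5.35% of all genes were called (2.88% higher and 2.47% lower), Timp3 was 1.73-fold higher at 21D (log2 fold change 0.79, standard error 0.21, edgeR adjusted p = 0.0302), and Timp1 was 1.71-fold lower without being called (-0.77, standard error 0.24, edgeR adjusted p = 0.0527). At 2 mg/kg, where 13.1% of genes were called (7.09% higher and 5.98% lower), Timp1 (-0.87, edgeR adjusted p = 0.0209) and Timp4 (-1.32, edgeR adjusted p = 0.0209) were called lower, and at 6 mg/kg, where 13.1% were called (8.54% higher and 4.55% lower), Timp1 was called lower (-0.85, edgeR adjusted p = 0.0349). The 21D 0 mg/kg tendon that stood highest for both Timp1 (358 CPM) and Timp3 (272 CPM) was replicate 2, whose log2 CPM correlated least with its group (mean r = 0.871, others 0.928 to 0.948). Without it, Timp1 was called at 0 mg/kg (-0.94, edgeR adjusted p = 0.0161) and Timp3 was not (0.54, edgeR adjusted p = 0.0652). That tendon also differed in cell markers, with muscle at 0.0750% of counts (others 2.20% to 7.65%) and summed macrophage markers of 7324 CPM (others 1198 to 3479 CPM). The Timp3 call was also lost without 21D 0 mg/kg replicate 1 (0.82, edgeR adjusted p = 0.0515), without 7D 0 mg/kg replicates 3 and 4 (0.0922 and 0.0814), with only the groups compared (0.0655) and with library size only (0.0588). Several of these calls also rested on single tendons of the other groups. Without 7D 2 mg/kg replicate 5, which had the highest Timp1 of all tendons at 729 CPM, neither Timp1 (-0.59, edgeR adjusted p = 0.150) nor Timp4 (-1.19, edgeR adjusted p = 0.0709) was called at 2 mg/kg. Timp1 was also not called without 21D 2 mg/kg replicate 1 (-0.83, edgeR adjusted p = 0.0511), nor Timp4 without 21D 2 mg/kg replicate 3 (-1.21, edgeR adjusted p = 0.0530). The call for Timp1 at 6 mg/kg was lost with 5 of its 8 tendons left out in turn, with the largest move without 7D 6 mg/kg replicate 5 (-0.60, edgeR adjusted p = 0.232). With the muscle covariate Timp1 was called at neither 2 mg/kg (-0.24) nor 6 mg/kg (-0.19). Timp4 at 2 mg/kg was called in all 10 alternatives, the covariate among them (log2 fold changes -2.56 to -1.29). Timp3 at 0 mg/kg also kept its call with the covariate. Muscle markers were called higher at 21D in 25 of 25 at both 2 and 6 mg/kg (median log2 fold changes 8.57 and 9.53) and in 3 of 25 at 0 mg/kg (2.58). Adipocyte markers were called lower in 5 of 6 at 2 mg/kg (median -3.81), 4 of 6 at 6 mg/kg (-2.71) and 0 of 6 at 0 mg/kg (-0.99). Beyond the muscle covariate their part in the Timp1 and Timp4 differences was not tested.

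The 3 doses at each time were then averaged in one contrast of the same model, 12 tendons at 7D against 15 at 21D, an analysis chosen after seeing the data. Of all genes, 35.7% were called in it, 18.9% higher and 16.8% lower at 21D. Timp1 was lower at 21D (log2 fold change -0.83, standard error 0.14, edgeR adjusted p = 7.98e-05) and so was Timp4 (-0.74, standard error 0.22, edgeR adjusted p = 0.00929). Timp3 (0.68, standard error 0.13, edgeR adjusted p = 0.000276) and Reck (0.38, standard error 0.13, edgeR adjusted p = 0.0193) were higher. Timp2 was not called (0.22, standard error 0.12, edgeR adjusted p = 0.140). No control tendon enters this contrast, so it does not rest on control replicate 4, but the differences in muscle and adipocyte markers between the times run through it as well.

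No dose of GSK2894631A gave a call for any of the 5 genes. Over the 3 doses together, 2.05% of all genes were called at 7D and 0% at 21D, where the unadjusted p was under 0.05 for 1366 genes and DESeq2 called 138. The adjusted p of the 5 genes ran from 0.249 (Reck) to 0.987 (Timp2) at 7D and from 0.445 (Timp3) to 0.976 (Timp2) at 21D. The test of whether the dose effect differed between 7D and 21D, which called 0.390% of genes, called none of them either, with edgeR adjusted p values of 0.830 (Timp4) and above. Over the 3 doses together, the unadjusted edgeR p was under 0.05 for Reck alone at 7D and for Timp3 alone at 21D, and DESeq2 called none of the 5. In single pairs of doses it was also under 0.05 for Timp3 at 7D (0.0411 for 2 against 0 mg/kg, 0.0385 for 6 against 2 mg/kg). At 21D it was so for 6 against 2 mg/kg in Timp3 (0.0126) and Timp4 (0.0295). None of these pairs was called. With only the groups compared in the edgeR fit, Reck was called over the 3 doses at 7D (adjusted p = 0.00554). Differences up to the ends of the following intervals are compatible with the data. The 95% interval of the log2 fold change for 6 against 0 mg/kg ran from -0.63 to 0.49 for Timp1 and from -0.37 to 0.51 for Timp2 at 7D, and from -0.63 to 0.33 and -0.39 to 0.38 at 21D. It was widest for Timp4, from -0.79 to 0.87 at 7D and -0.31 to 1.14 at 21D.

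Reck at 7D came closest to a dose difference. All 4 tendons at 2 mg/kg (78.9, 75.6, 75.4 and 85.0 CPM) were above all 5 at 0 mg/kg (46.1 to 56.3 CPM) and above the 3 at 6 mg/kg (56.1, 48.3 and 64.2 CPM). The level at 2 mg/kg was 1.56-fold that at 0 mg/kg (log2 fold change 0.64, standard error 0.21, 95% interval 0.20 to 1.08, unadjusted p = 0.00563 and adjusted p = 0.111 in edgeR). In that comparison 2.36% of genes were called (0.908% higher and 1.45% lower), and 2.77% had all values at 2 mg/kg above all values at 0 mg/kg. The difference was called by DESeq2 (adjusted p = 0.0425) and when only the groups compared were in the edgeR fit (0.00419), and by none of the other 8 alternatives. At 6 mg/kg Reck differed from 0 mg/kg by a log2 fold change of 0.15 (95% interval -0.32 to 0.63), and the difference of 6 against 2 mg/kg was -0.49 (95% interval -0.99 to 0.02). Skeletal muscle markers were called lower in 19 of 25 at 7D 2 against 0 mg/kg (median log2 fold change -7.09) and in 15 of 25 at 6 against 0 mg/kg (-6.56), and with the muscle covariate the Reck difference at 2 mg/kg was 0.46 (edgeR adjusted p = 0.323).

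**Figure D3:**
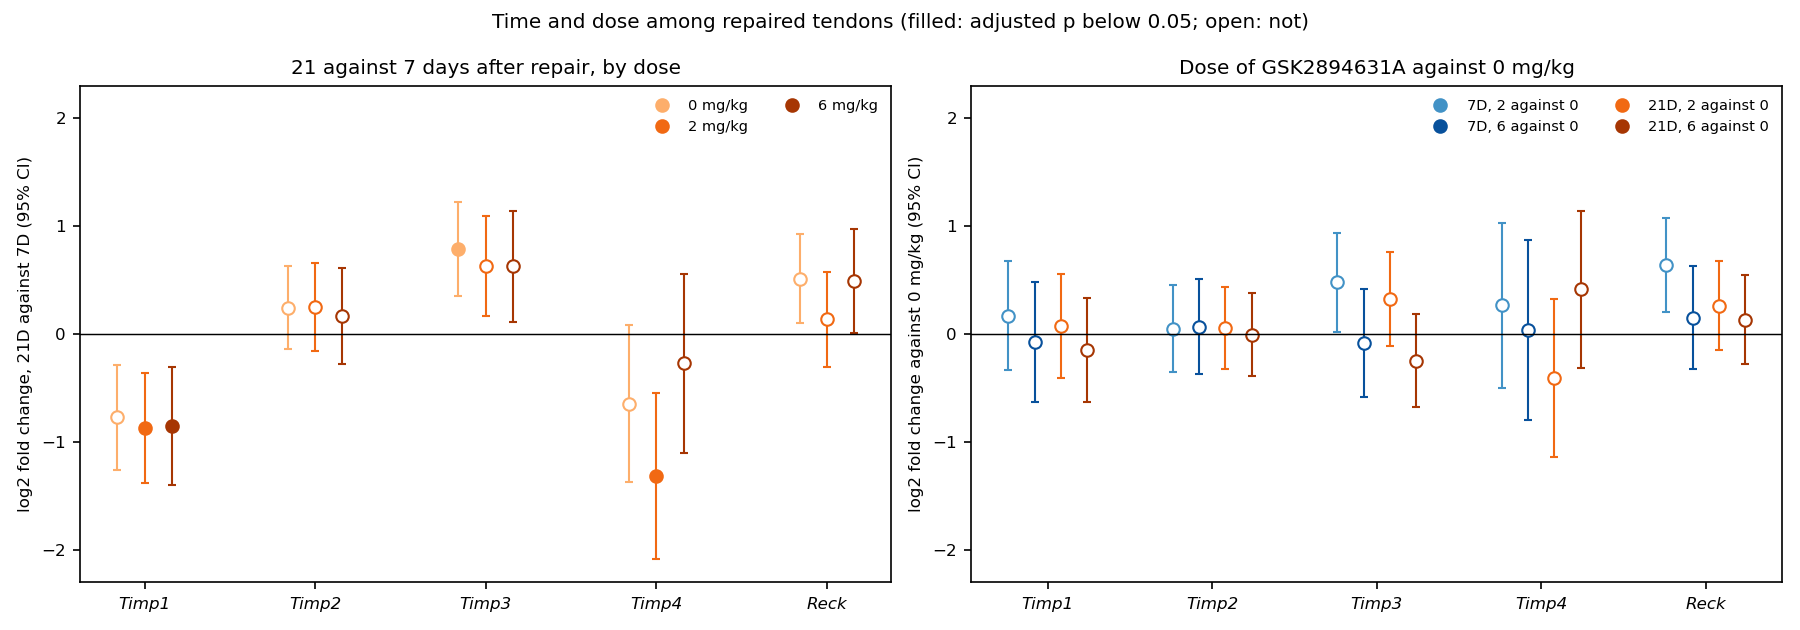
Log2 fold changes with 95% intervals among the 27 repaired tendons: 21D against 7D at each dose (left) and 2 or 6 mg/kg against 0 mg/kg at each time (right). Filled points have an adjusted p under 0.05 and open points do not. Timp1 is below 0 and Timp3 above 0 at each dose on the left, and every point on the right is open.

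Because the members moved by different amounts, the balance among them changed. A log2 ratio of 2 genes within a tendon does not depend on how libraries are scaled to each other, and its change does not depend on gene length. In all, 18 such differences were tested in control, 7D 0 mg/kg and 21D 0 mg/kg, which is 6 ratios in 3 pairs of groups, by exact two-sided permutation tests over tendons. The smallest p the design allows is 0.0357 for 5 tendons against 3 and 0.00794 for 5 against 5. Of the 18, 15 had an adjusted p of 0.0429. Every test against control stood at its smallest p and passed only because smaller p values between times were adjusted in the same family. Passing therefore shows no more for these ratios than the lack of overlap. Every ratio differed from control without overlap at both times, which is the limit of what 3 controls can show. The share of other gene pairs that separate in this way was not computed. Of single genes, 31.2% lay wholly above and 30.7% wholly below control at 7D 0 mg/kg, and 25.0% and 27.8% at 21D 0 mg/kg. With any 1 of the 13 tendons left out, control replicate 4 among them, 0 of the 18 tests passed. Leaving a tendon out raises the smallest p of the tests that lose it, so this outcome was largely set by the design.

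Timp1 gained on Timp2 by 2.21 on the log2 scale at 7D 0 mg/kg and by 1.19 at 21D 0 mg/kg, and the difference between the times was -1.03 (exact permutation p = 0.0159, adjusted p = 0.0429). Timp1 gained on Timp3 by 3.82 at 7D and 2.29 at 21D, and the 5 ratios at 7D (1.85 to 2.34) were all above the 5 at 21D (0.35 to 0.90). Timp4 lost 2.50 and 3.42 against Timp2, with no call for the difference between times (exact permutation p = 0.0714, adjusted p = 0.0756). The control values of this ratio were -5.69, -5.11 and -2.86. The last is replicate 4, the control with the largest muscle share, and it raises the control mean and so the size of both losses. Reck lost 1.20 and 0.95 against Timp2, and this ratio was the tightest of all in control (-3.60 to -3.42), where the single genes spread by more than 3 times. In control replicate 4, then, Reck and Timp2 were low together.

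The ratio of MMP14, the membrane-bound collagenase that TIMP-2 and RECK both restrain, to these 2 inhibitors also rose against control. Mmp14 gained on Timp2 by 3.39 at 7D 0 mg/kg and 2.83 at 21D 0 mg/kg, and on Reck by 4.59 and 3.78. Between 7 and 21 days Mmp14 against Timp2 fell by 0.56 (exact permutation p = 0.0238, adjusted p = 0.0429), and Mmp14 against Reck differed by -0.81 without passing (exact permutation p = 0.0556, adjusted p = 0.0625). The direction between times was not the same at every dose: at 2 mg/kg the mean log2 ratio of Mmp14 to Timp2 was -0.95 at 7D and -0.55 at 21D, and that of Mmp14 to Reck 3.15 and 3.68, with no test. These are ratios of transcripts, and neither protein nor enzyme activity was measured.

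**Figure D4:**
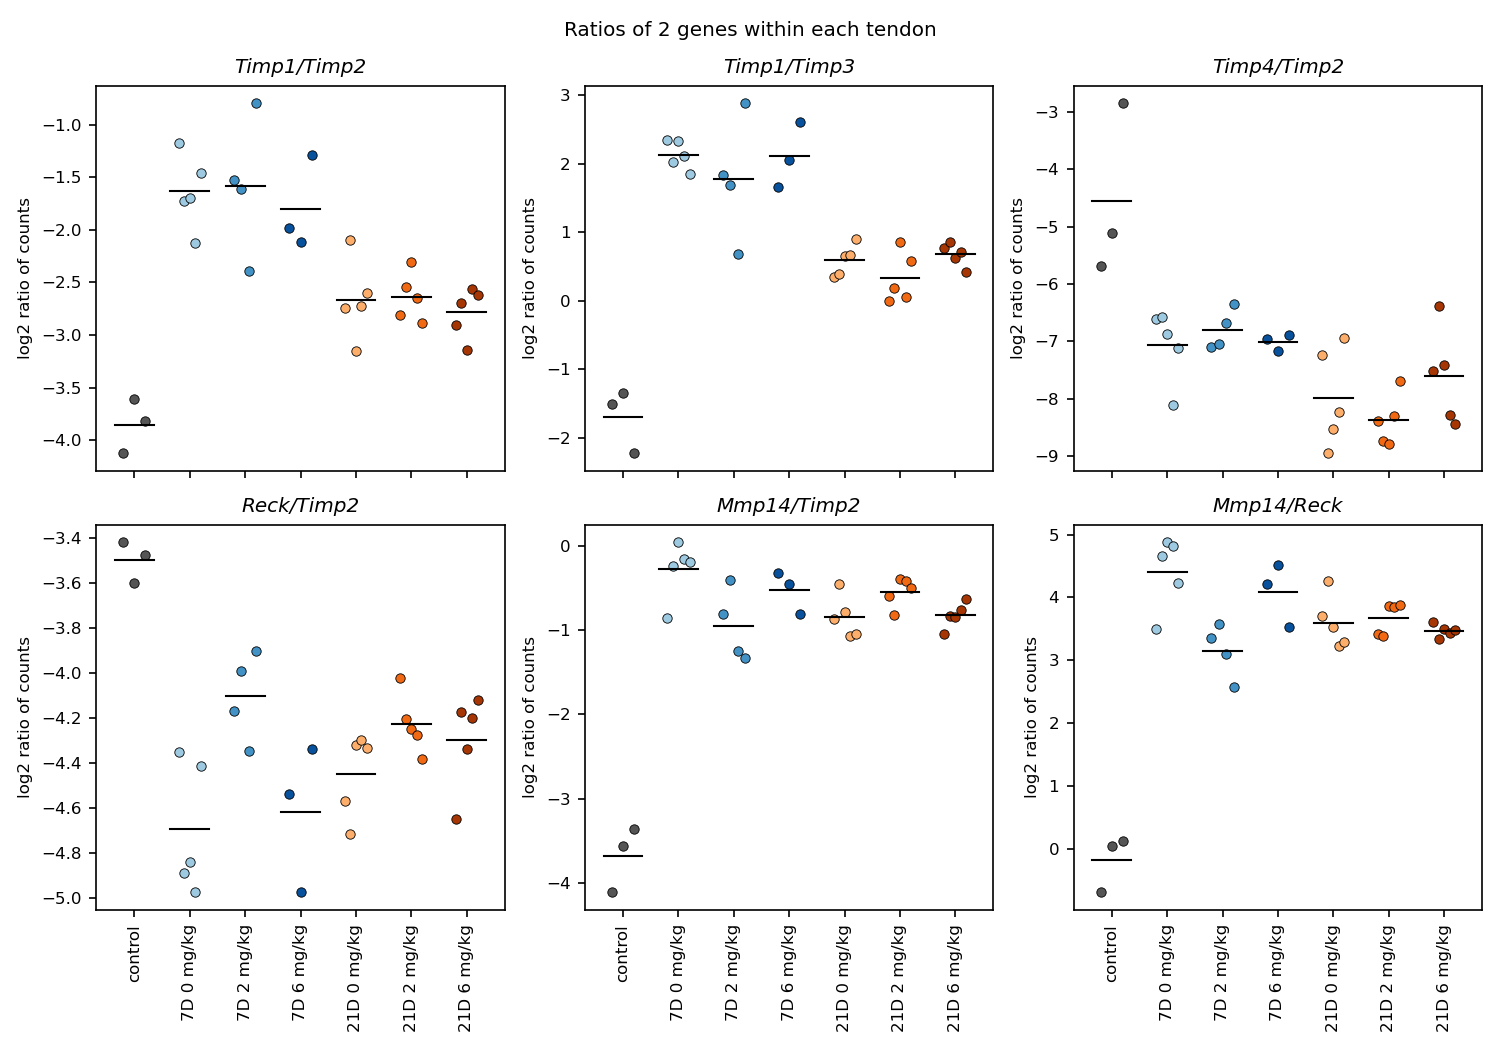
Log2 ratio of counts for 6 pairs of genes in each of the 30 tendons, by group, with the group mean as a bar. Values show change between groups and not relative abundance, because the genes differ in length. Control tendons stand apart from every 7D and 21D 0 mg/kg tendon in all 6 ratios, and the group means of both ratios with Timp1 on top are higher at 7D than at 21D. The share of other gene pairs that stand apart in this way was not computed.

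Proteases of the families in which these inhibitors have their targets were read from lists fixed by name. Beside the counts of each list stand the shares of all genes called. These were 35.8% higher and 35.6% lower at 7D 0 mg/kg, and 32.2% and 33.7% at 21D 0 mg/kg. Of 15 matrix metalloproteinase (MMP) genes tested, 9 were called higher and 2 lower at 7D 0 mg/kg, with a median log2 fold change of 2.00 against 0.05 for all genes, and the same numbers held at 21D 0 mg/kg, with a median of 1.90 against 0.03. The 2 lower at both times were Mmp15 and Mmp24, named after their values were seen. Mmp14 went from 49.8 ± 17.4 CPM in control (n = 3) to 1109.5 ± 293 CPM at 7D and 878 ± 234 CPM at 21D (n = 5 each), a log2 fold change of 4.48 and 4.14. Mmp2, the gelatinase that MMP14 activates with the help of TIMP-2, rose by 2.10 on the log2 scale at 7D and 2.11 at 21D, and Mmp19 by 2.68 and 2.27. Mmp12, the macrophage elastase, rose from 1.27 ± 0.498 CPM to 383 ± 292 CPM at 7D and 608 ± 621 CPM at 21D, with the macrophage markers called higher beside it (6 of 7 at 7D, 5 of 7 at 21D). Timp1 lay within the range of the rises of the MMP genes, while the changes of Timp2, Timp3, Timp4 and Reck were below the MMP median.

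**Figure D5:**
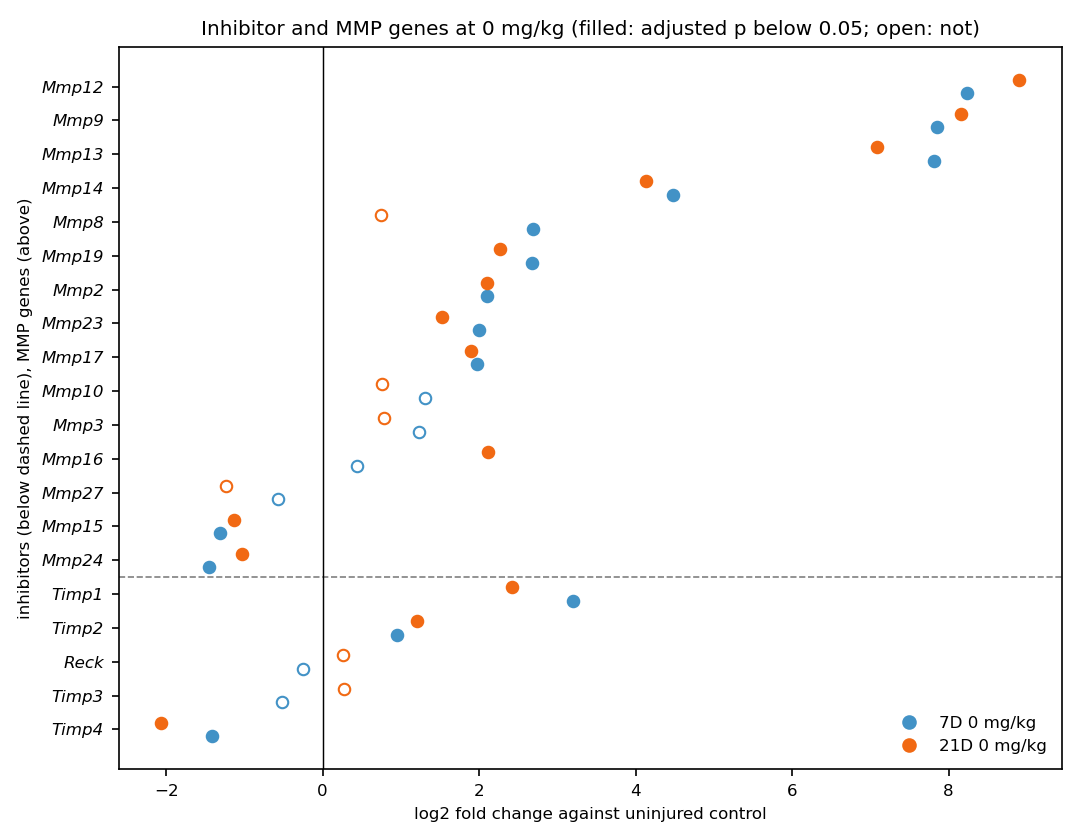
Log2 fold change against control at 7D 0 mg/kg (blue) and 21D 0 mg/kg (orange) for the 5 inhibitors, below the dashed line, and the 15 MMP genes tested, above it. Filled points have an adjusted p under 0.05 and open points do not. Timp1 is the inhibitor nearest to the rising MMP genes, and Timp4 falls further at 21D than any MMP gene.

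Most of the ADAM and ADAMTS protease genes listed also rose, and TIMP-3 blocks some of these enzymes and not all of them. Of 8 ADAM genes, 7 were called higher and none lower at 7D 0 mg/kg (median log2 fold change 0.84), and 6 and none at 21D 0 mg/kg. Of all genes, 35.8% and 32.2% were called higher in these comparisons. Adam17, the sheddase of tumour necrosis factor, rose by 0.95 and 1.02 on the log2 scale, Adam12 by 3.99 and 3.19, and Adam9 was at 0.11 and 0.03 without being called. Of 18 ADAMTS genes, 13 were called higher and 1 lower at 7D, and 14 and 1 at 21D (medians 1.46 and 1.37), the 1 lower being Adamts20 at both times. The aggrecanase Adamts4 rose by 4.33 and 3.34, Adamts5 by 1.19 and 1.25, and Adamts2, which trims procollagen, by 1.19 and 1.46. Timp3 itself was not called in these groups, at -0.52 and 0.27.

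Other secreted protease inhibitors did not move as one group. Of 12 tested, 5 were called higher and 2 lower at 7D 0 mg/kg, and the same numbers at 21D 0 mg/kg (medians 0.74 and 0.70). The number higher is near the share of all genes called higher, 35.8% at 7D 0 mg/kg and 32.2% at 21D 0 mg/kg. Slpi, an inhibitor of neutrophil elastase, rose by 6.28 on the log2 scale at 7D and by 3.55 at 21D, and Serping1, the inhibitor of complement C1 proteases, by 1.26 and 1.34. Spock2, a proteoglycan with an inhibitor-like domain, fell by 2.37 and 2.83, and Cst3, the cysteine protease inhibitor cystatin C, was lower at 7D (-0.83, edgeR adjusted p = 0.00387) and not called at 21D (-0.02), where Tfpi was the other gene called lower. Tfpi and Adamts20 are named after their values were seen. Of 7 genes for binding partners and clearance receptors, 4 were called higher and none lower at both times. They were Lrp1, the receptor that clears TIMP and protease complexes (1.46 and 1.36), Cd63, a cell surface partner of TIMP-1 (1.20 and 1.17), Cd44 (2.53 and 3.25) and Adgra2, the partner of RECK in Wnt signalling at blood vessels (1.46 and 1.42). The integrin subunit gene Itgb1 was at 0.18 and 0.19 without a call.

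Marker lists of other cells moved with the comparisons against control, and beyond the muscle covariate their part was not tested. At 7D 0 mg/kg against control, the number called higher and lower was 5 and 0 of 6 fibroblast markers, 6 and 0 of 7 macrophage markers, 3 and 0 of 5 endothelial markers, 3 and 0 of 6 smooth muscle and pericyte markers, 0 and 0 of 4 Schwann cell markers, 2 and 2 of 5 cartilage markers and 0 and 5 of 8 tenocyte markers. Of all genes, 35.8% were called higher and 35.6% lower there, and the cartilage counts are near these shares. The summed fibroblast markers took 0.784% to 3.54% of counts in controls and 8.11% to 11.9% at 7D 0 mg/kg, and the summed macrophage markers went from 233 to 1290 CPM to 1818 to 4206 CPM. In control replicate 4 both lists were lowest, as were Timp1, Timp2, Timp3 and Reck.

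Among the 27 repaired tendons, the member with the closest relation to another was Timp4, which ran against Timp3 (Pearson r = -0.65 over tendons, Spearman rho = -0.64, and r = -0.45 after removing group means). Timp3 ran with Reck (r = 0.61), but within groups that fell to 0.13, so most of it came from differences between groups, and Timp2 ran with Reck (r = 0.57, and 0.42 within groups). The genes most like each member over the same tendons, among 9531 compared and given with no test, were Slc39a14, Steap1 and Uhrf1 for Timp1 (r = 0.92, 0.91 and 0.90) and Mbtps1, Fbln7 and Sulf2 for Timp2 (r = 0.85, 0.84 and 0.84). They were Tollip, Atp2b4 and Anxa5 for Timp3 (r = 0.92, 0.90 and 0.90), Ramp2, Lifr and Akr1c14 for Timp4 (r = 0.82, 0.81 and 0.81) and Pmp22, Prelp and Ackr2 for Reck (r = 0.90, 0.88 and 0.88). Within groups these 15 correlations ran from 0.69 to 0.84. All of these points share libraries, and time since repair separates them.

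Of the 5 genes, 3 lie inside a synapsin gene. In the RefSeq annotation of GRCr8, Timp1 lies within Syn1 and Timp4 within Syn2, each on the opposite strand, and Timp3 within Syn3, while Timp2 overlaps Cep295nl. Whether counting used strand is not given in the sources used here, so reads from a gene and its antisense host cannot be told apart. Of the hosts, Syn1 was listed, with 12 to 194 counts per tendon against 267 to 18609 for Timp1, and it was called higher at 7D 0 mg/kg (log2 fold change 1.23, edgeR adjusted p = 0.00716).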

How the data were processed

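The authors trimmed single-end reads with fastp, aligned them to rn6 with STAR and Ensembl annotation, and deposited whole-number counts of reads over exons, 1 column per tendon. Whether counting used strand is not given in the sources used here. A second deposited table holds the authors' own edgeR comparisons (fold changes and p-values), which were not used, and a gene width, another deposited value, which spans introns and was not used for scaling.

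Counts were scaled by TMM, and a gene was tested if its mean reached 3 CPM in any of the 7 groups (12558 of 13124). One edgeR 4.0.16 quasi-likelihood model (R 4.3.3, limma 3.58.1) held all 30 tendons with 1 coefficient per group and no covariate, with p-values adjusted by Benjamini-Hochberg over all genes tested and called at under 0.05. Ratios used log2 CPM with a prior count of 2 and exact permutation tests (scipy 1.17.1, Python 3.11.15). Total counts ran from 12405741 to 49909374 per tendon. Intervals are 95% confidence intervals of a difference between groups of 3 to 5 rats, from the model of all 30 tendons. They do not give the range of single tendons. No 2 tendons of a group agreed within sampling noise (lowest chi-square 29.9 per gene). The edgeR, limma-trend and DESeq2 steps were tested on simulated counts for 7D 0 mg/kg against control. The other comparisons and tests were not.

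The members, gene lists and marker lists were chosen with earlier results of these data known. All 5 members are named. From each list at most the 4 most abundant genes and the 4 with the smallest adjusted p at 7D 0 mg/kg against control are named with values, and for each member the 3 genes with the highest Pearson r among genes of at least 10 mean CPM. Alternatives were other scalings (library size only, RLE size factors, scaling without muscle genes), other filters, DESeq2 1.42.0, limma-trend, a 1.5-fold threshold, only the groups compared, a replicate block, a muscle covariate, another prior count and leaving out each tendon. The values of 1 listed gene are not reported here.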

Additional observations from a re-analysis of the deposited data

Results flagged for a closer look

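In 1 of the 25 groups of 4 or 5 tendons examined over the 5 genes, a tendon lay far from the others. Timp3 in 21D 0 mg/kg replicate 2 was 272 CPM, while the other 4 tendons of the group had 118 to 155 CPM. The gap to its nearest neighbour was 0.758 of the group's whole range, above Dixon's critical value of 0.710 for 5 samples, and chance exceeds that value in about 1 in 20 groups. The same tendon had the highest Timp1 and the lowest Timp4 of its group, 358 and 3.05 CPM. Its muscle markers took 0.0750% of counts (others 2.20% to 7.65%) and its macrophage markers summed to 7324 CPM (others 1198 to 3479 CPM).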

How the results depend on the processing

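Of the values for single members, 861 stayed on the same side of the threshold under the alternatives, 33 passed newly, 19 no longer passed and 2 that had passed changed sign. These counts include the average over the 3 doses, a different contrast chosen after seeing the data. It gave 7 of the 861 and 8 of the 33. Among the 861, 19 changed sign without passing under either setting. With the muscle covariate Timp4 turned to 0.81 at 7D 2 mg/kg and 0.59 at 7D 6 mg/kg, genes called against control at 7D went to 5641, 1345 and 1375 at 0, 2 and 6 mg/kg, those between times to 314 at 0 and 281 at 6 mg/kg, those over the doses at 7D to 862 and those of the dose effect between times to 575, and members called at 21D 2 mg/kg to 3. The cause was not tested. With library size only, members called were 5 at 21D 0 mg/kg and 0 between times at 0 mg/kg, and 1 gene was called over the doses at 21D. On that scale the median of all genes moved to 0.64 at 7D 0 mg/kg and 75.6% of calls there were higher. DESeq2 called 1496 genes and 2 members between times at 0 mg/kg, 2 members at 6 mg/kg, 1 member at 7D 2 against 0 mg/kg, 572 and 138 genes over the doses at 7D and 21D, and 181 for the dose effect between times. With only the groups compared, 1 member and, at 21D, 1 gene were called over the doses, 1 member at 7D 2 against 0 mg/kg and 31 genes for the dose effect between times. A 1.5-fold threshold left 428 genes between times at 0 mg/kg, and limma-trend 0 members at 6 mg/kg.

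Leaving out each tendon in turn gave 8314 to 8808 called genes at 7D 0 mg/kg, 8145 to 8574 at 7D 2 mg/kg, 7919 to 8441 at 7D 6 mg/kg, 7426 to 8283 at 21D 0 mg/kg, 7910 to 8505 at 21D 2 mg/kg and 7109 to 8014 at 21D 6 mg/kg against control. Between times it gave 203 to 1411, 953 to 1545 and 795 to 1973 genes at 0, 2 and 6 mg/kg, over the doses 161 to 315 at 7D and 0 to 2 at 21D, and 16 to 79 for the dose effect between times. Members called were 3 to 5, 2 to 4 and 3 to 3 at 7D against control, 3 to 4, 3 to 5 and 3 to 4 at 21D, and 0 to 1, 0 to 3 and 0 to 1 between times. Of the 18 ratio tests, 0 to 0 passed with a tendon left out. Fewer arrangements raise the smallest p of the tests that lose a tendon, and the tests that lost none did not pass either.

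Replicate numbers did not pair the tendons: 76 pairs with the same number had correlated deviations from -0.70 to 0.68 (29 over 0.1), and 6 of 30 tendons correlated best with their own number. With the replicate block, 28 genes were called for the dose effect between times and 2 members between times at 0 mg/kg, the added one being Timp1 (-0.78, edgeR adjusted p = 0.0439).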
